A study of Mus musculus with 9 samples.

Results

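The activin and bone morphogenetic protein (BMP) branch of TGF-beta signalling was followed here through 10 genes, with Gdf15 and the follistatins among them, in the mouse left ventricle after ischemia-reperfusion. They were taken by their symbols and are 10 of the 38293 genes in the count table: the activin chains Inhba and Inhbb, the ligands Gdf15, Bmp2, Bmp4 and Bmp6, and the secreted proteins Fst, Fstl3, Fstl1 and Grem1. Activins are dimers of the beta chains that Inhba and Inhbb encode, and they signal through type II and type I receptor kinases to Smad2 and Smad3. BMPs use related receptors and signal to Smad1, Smad5 and Smad9. Follistatin (Fst) and follistatin-like 3 (Fstl3) bind activins outside the cell and keep them from their receptors, while gremlin 1 (Grem1) does so for BMPs. Gdf15 is a distant, stress-induced member of the same superfamily whose receptor, Gfral with Ret, acts in the hindbrain. In the injured heart, activin A and Gdf15 are known as secreted products of stressed tissue, and Fstl1 as a glycoprotein of fibroblasts and the epicardium.

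All 9 animals were male C57BL/6 mice aged 8 weeks, 3 per group. Mice 1, 2 and 3 had sham surgery, and the time at which their tissue was taken is not given in the labels. Mice 4, 5 and 6 were sampled 1 day, and 3 other mice 14 days, after ischemia-reperfusion, in which the left anterior descending artery was tied for 1 hour and then released. All tissue is labelled as left ventricle from the infarcted region, sham included. The 14-day count columns all carry the name of mouse 7. That they come from 3 animals is taken from the sample titles, which name mice 7, 8 and 9. The letters A, B and C given to these columns here serve only to tell them apart.

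Libraries held 20215781 to 36816818 counts, of which mitochondrially encoded genes took 52.0% to 71.8%. The mitochondrial rRNA gene mt-Rnr2 alone took 42.6% to 50.6% at 1 day and 51.7% to 57.6% in the other groups. Without rRNA genes, 7217019 to 15969149 counts were left per library. On the first principal component (63.5% of the variance) mouse 6 lay at 40.6, apart from mice 4 and 5 at 83.3 and 84.1, and the other libraries lay between -42.5 and -18.3. All 6 cardiomyocyte markers were present in every group. Of the 3 atrial markers, Sln was at 0 in sham and at 1 day, and the others had counts in every group. At 1 day, 5 of 6 cardiomyocyte markers were lower than in sham (summed level 6565 to 12852 against 18740 to 20767 CPM, counts per 1M of the scaled library) and 4 of 4 tested neutrophil markers were higher (15.9 to 53.3 against 1.21 to 3.96 CPM, 1.49 to 2.74 CPM at 14 days). At 14 days, 6 of 6 fibroblast markers were higher than in sham (1789 to 4202 against 516 to 916 CPM, 704 to 966 CPM at 1 day), as were 6 of 6 monocyte and macrophage markers (180 to 349 against 114 to 128 CPM). At 1 day 3 of 6 monocyte and macrophage markers were already higher than in sham (210 to 231 CPM). Of the fibroblast markers at 1 day, Pdgfra was higher than in sham (mean 66.1 against 36.2 CPM) and Dcn lower (mean 101 against 226 CPM). The other fibroblast markers were not called at 1 day. Also at 1 day 3 of 3 erythroid markers were lower than in sham (43.8 to 63.4 against 77.3 to 127 CPM), as were 2 of 5 blood endothelium markers (280 to 286 against 374 to 396 CPM) and 2 of 4 mural cell markers, with 1 higher (220 to 318 against 405 to 417 CPM). In these 7 lists, the atrial one left aside, no gene was at 0 in all libraries of a group. By the edgeR test described below, 29.4% of all genes tested were called higher and 24.8% lower than in sham at 1 day. At 14 days these shares were 8.75% and 5.64%.

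The 10 genes fell into 3 patterns. Inhba, Fstl3 and Gdf15 were high at 1 day and lower again at 14 days, with Inhbb following in a smaller range. Fst, Fstl1 and Bmp4 were highest at 14 days. Bmp2 and Bmp6 were not called, and Grem1 had no count in any library. The edgeR quasi-likelihood test, with p-values adjusted over all 14124 tested genes and a threshold of 0.05, called 5 of the 9 tested members higher and 0 lower at 1 day against sham. Of all genes tested, it called 54.2% in this comparison, 29.4% higher and 24.8% lower. At 14 days against sham 3 members were higher and 0 lower, where 14.4% of all genes were called, 8.75% higher and 5.64% lower. Between both times 3 members were higher and 4 lower at 14 days, where 51.9% of all genes were called, 25.1% higher and 26.8% lower. The share of members called at 1 day thus lay near that of all genes. Groups did not overlap for 6 of the 9 members at 1 day against sham (63.2% of all genes), for 3 at 14 days against sham (39.4% of all genes) and for 6 between both times (56.3% of all genes). The median log2 fold of the 9 genes was 0.84 at 1 day and 0.87 at 14 days against sham, beside 0.04 and 0.01 over all genes tested. Of the 9, 7 differed among the 3 groups, namely all tested members but Bmp2 (edgeR adjusted p = 0.513) and Bmp6 (edgeR adjusted p = 0.123), where 63.0% of all genes did.

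**Figure D1:**
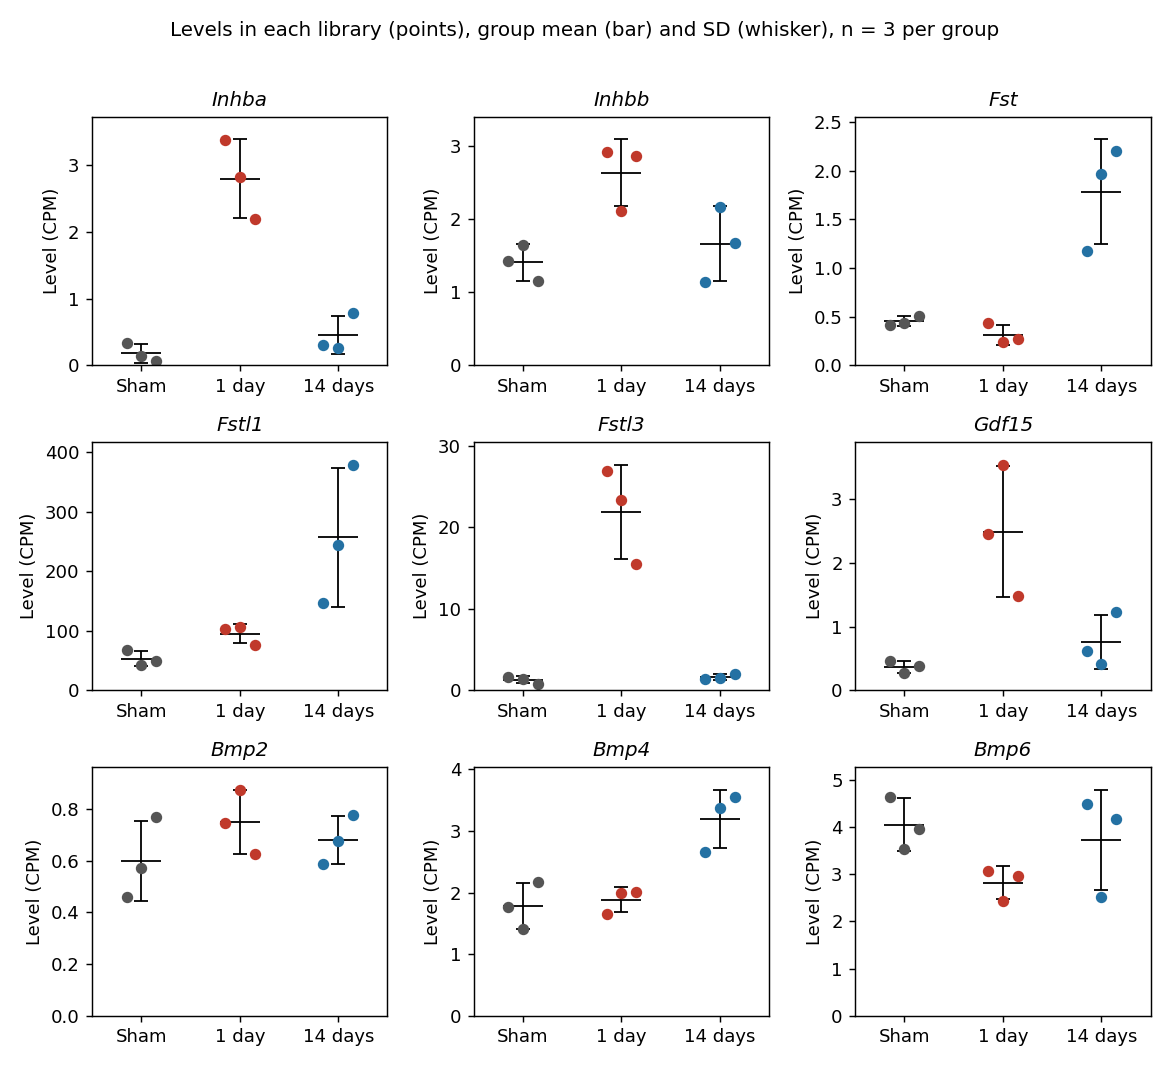
Level of each tested gene in CPM (linear axes from 0, a scale of its own in each panel) in sham, 1-day and 14-day libraries, with 1 point per library, the group mean as a bar and the SD as a whisker. Inhba, Fstl3 and Gdf15 stand high at 1 day, while Fst, Fstl1 and Bmp4 stand high at 14 days.

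A pair of promoters is shown because they belong to the pair of genes with the largest change at 1 day, the ligand chain Inhba and the activin-binding Fstl3. Among the members' promoters on hand, they alone also held the letters of a TATA box. RefSeq promoters of GRCm38.p6, each 250 bases before to 50 after a start, were on hand for 8 of the 10 genes, in 9 windows. These letters, searched as TATAAA on both strands, stand in capitals in the stretches below, at -91 from the start in Inhba (chr13:16011730-16011795, plus strand) and at -29 in Fstl3 (chr10:79777215-79777273, plus strand, where the match reads TTTATA because it lies on the other strand).
Inhba: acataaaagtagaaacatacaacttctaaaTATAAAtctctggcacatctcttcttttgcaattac
Fstl3: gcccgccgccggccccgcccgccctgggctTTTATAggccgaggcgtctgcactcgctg
Of all 32851 promoters of this length, 13.62% held TATAAA, beside 2 of the 9 windows of the members. No member's window held the AP-1 motif TGANTCA (7.808% of all promoters), the CRE TGACGTCA (1.79%), the C/EBP-ATF element TGATGCAA (0.8949%) or the Smad palindrome GTCTAGAC (0.2131%). The GC-rich BMP-Smad motif GGCGCC (11.87% of all promoters) was found in the window of Grem1 only. These matches describe letters in a window, and no binding was measured.

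Inhba, the beta A chain of activin A (ENSMUSG00000041324, chr13:16011851-16031621, GRCm38), was low in sham and high in every library at 1 day. Its level was 0.335, 0.135 and 0.0639 CPM in sham mice 1, 2 and 3, from 8, 4 and 1 counts. At 1 day it was 3.37, 2.82 and 2.20 CPM in mice 4, 5 and 6, from 149, 71 and 49 counts. Each 1-day library thus stood above each sham library. At 14 days it was 0.312, 0.264 and 0.777 CPM in libraries A, B and C, of which A and B lay within the sham range. At 1 day Inhba rose 14.8-fold, a log2 fold of 3.89 (SE 0.46, edgeR adjusted p = 8.37e-05). Sham rests on 13 counts in all, and without sham mouse 1 the log2 fold was 4.63 (edgeR adjusted p = 4.15e-04). At 14 days the log2 fold against sham was 1.18 (SE 0.58, edgeR adjusted p = 0.196), and it was 1.94 without sham mouse 1 and 0.59 without library C, so that no change was called. From 1 day to 14 days Inhba fell 6.50-fold (log2 SE 0.38, edgeR adjusted p = 2.24e-04).

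Inhbb, the beta B chain (ENSMUSG00000037035, chr1:119415465-119422248), moved in the same direction in a narrower range. Sham mice had 1.42, 1.65 and 1.15 CPM, and mice 4, 5 and 6 had 2.92, 2.10 and 2.87 CPM, with no overlap. The 14-day libraries, at 1.14, 2.17 and 1.68 CPM, overlapped both other groups. The rise at 1 day was 1.84-fold, a log2 fold of 0.88 (SE 0.25, edgeR adjusted p = 0.0119), and without mouse 4 it was 0.76 and not called (edgeR adjusted p = 0.0597). At 14 days the log2 fold against sham was 0.22 (SE 0.26, edgeR adjusted p = 0.613), and it was -0.04 without library B. The fall from 1 to 14 days, by 0.66 on the log2 scale (SE 0.24, edgeR adjusted p = 0.0380), lost its call without sham mouse 1, mouse 4, mouse 6, library A or library C (log2 folds from -0.91 to -0.44 over the libraries left out, edgeR adjusted p up to 0.141).

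The share of Inhba among the activin chains was highest in the 1-day libraries, a difference that 3 against 3 libraries cannot bring past the threshold. Per kilobase of exonic length, Inhba made up 13.5%, 5.16% and 3.57% of the activin chain level in sham mice 1, 2 and 3. In mice 4, 5 and 6 its share was 43.5%, 47.1% and 33.8%. At 14 days it was 15.4%, 7.49% and 23.6% in libraries A, B and C. The log2 ratio of Inhba to Inhbb, from counts plus 0.5 per kilobase, averaged -3.62 ± 0.88 in sham, -0.51 ± 0.41 in the 1-day mice and -2.55 ± 0.95 in the 14-day mice (SD, n = 3). Its difference from sham was 3.12 at 1 day (two-sided exact permutation p = 0.1, 0.15 adjusted over 6 tests of ratios), where 0.1 is the smallest p that 3 against 3 can give. At 14 days the difference from sham was 1.08 (exact permutation p = 0.2, adjusted 0.24), and from 1 day it was -2.04 (exact permutation p = 0.1, adjusted 0.15).

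Gdf15 (ENSMUSG00000038508, chr8:70629393-70632456), the stress-induced cytokine, was high at 1 day. Sham mice had 0.461, 0.270 and 0.383 CPM, from 11, 8 and 6 counts. Mice 4, 5 and 6 had 2.44, 3.53 and 1.48 CPM, from 108, 89 and 33 counts. The 14-day libraries A, B and C had 0.623, 0.410 and 1.23 CPM, so that all 1-day libraries stood above all others and library B lay within the sham range. Gdf15 rose 6.79-fold at 1 day, a log2 fold of 2.76 (SE 0.46, edgeR adjusted p = 5.62e-04). Mouse 6 was the lowest of its group, and without it the log2 fold was 3.00 (edgeR adjusted p = 3.15e-05). At 14 days the log2 fold against sham was 0.99 (SE 0.52, edgeR adjusted p = 0.227), and from 1 day Gdf15 fell by 1.77 on the log2 scale (SE 0.39, edgeR adjusted p = 0.00331).

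Against sham, the log2 folds of Bmp2, Bmp4 and Bmp6 were all below 1 in size. Bmp4 (ENSMUSG00000021835, chr14:46383520-46390669), a ligand of heart development and vascular cells, had 1.76, 1.42 and 2.17 CPM in sham mice 1, 2 and 3 and 1.65, 1.99 and 2.02 CPM in mice 4, 5 and 6. These groups overlapped, with a log2 fold of 0.10 (SE 0.21, edgeR adjusted p = 0.713) that was -0.07 without sham mouse 2. At 14 days it had 2.67, 3.37 and 3.56 CPM in libraries A, B and C, above every other library. The rise against sham was 1.83-fold, a log2 fold of 0.87 (SE 0.20, edgeR adjusted p = 0.0162). It was not called without sham mouse 1, sham mouse 2, library B or library C (log2 folds of 0.88, 0.71, 0.83 and 0.78, edgeR adjusted p from 0.0579 to 0.0970). From 1 to 14 days Bmp4 rose by 0.77 on the log2 scale (SE 0.19, edgeR adjusted p = 0.00595), a call lost when libraries were scaled by total count only (0.40, edgeR adjusted p = 0.210).

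Bmp2 (ENSMUSG00000027358, chr2:133552159-133562885), the close relative of Bmp4, stayed between 0.461 and 0.874 CPM in all 9 libraries. It had 0.461, 0.573 and 0.767 CPM in sham, 0.747, 0.874 and 0.627 CPM at 1 day, and 0.589, 0.674 and 0.777 CPM at 14 days, and the 3 groups overlapped. Its log2 folds against sham were 0.36 at 1 day (SE 0.28, edgeR adjusted p = 0.303) and 0.21 at 14 days (SE 0.29, edgeR adjusted p = 0.667). Bmp2 had 40 counts over the sham mice, and small changes may have been missed with 3 mice per group.

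Bmp6 (ENSMUSG00000039004, chr13:38345107-38500302), known from iron control through hepcidin, had 4.65, 3.54 and 3.96 CPM in sham mice 1, 2 and 3. Mice 4, 5 and 6 had 3.08, 2.42 and 2.96 CPM, each below each sham mouse. The log2 fold of -0.51 (SE 0.22) did not pass the threshold (edgeR adjusted p = 0.0658), but did when sham and 1-day libraries were fitted alone (edgeR adjusted p = 0.0194) and without library A or B (edgeR adjusted p down to 0.0225). With scaling by total count only it was -0.03 (edgeR adjusted p = 0.942). The 14-day libraries A, B and C had 4.50, 2.52 and 4.17 CPM and overlapped both groups, with a log2 fold against sham of -0.13 (SE 0.21, edgeR adjusted p = 0.730) that was 0.10 without library B.

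Fstl3, the secreted activin binder (ENSMUSG00000020325, chr10:79777272-79782630), showed the largest log2 fold of the 9 tested genes at 1 day. Sham mice 1, 2 and 3 had 1.67, 1.42 and 0.831 CPM. Mice 4, 5 and 6 had 26.8, 23.3 and 15.5 CPM, and the 14-day libraries A, B and C had 1.42, 1.55 and 2.04 CPM. Every 1-day library stood far above every other library, and the sham and 14-day groups overlapped. The rise at 1 day was 16.2-fold, a log2 fold of 4.02 (SE 0.26, edgeR adjusted p = 4.91e-06), and 4.20 without mouse 6. At 14 days the log2 fold against sham was 0.29 (SE 0.31, edgeR adjusted p = 0.567), and from 1 day Fstl3 fell by 3.73 on the log2 scale (SE 0.24, edgeR adjusted p = 4.66e-06). Of the exonic bases of Fstl3, 47.3% (1157 bases) overlap Prss57 on the opposite strand, and the strand setting of the counting is not given in the sources used here. Prss57 itself had 0 or 1 count in each library.

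Fst, follistatin (ENSMUSG00000021765, chr13:114452290-114458951), was highest at 14 days, where Fstl3 was not called against sham. It had 0.419, 0.438 and 0.511 CPM in sham mice 1, 2 and 3, from 10, 13 and 8 counts. Mice 4, 5 and 6 had 0.430, 0.238 and 0.269 CPM, from 19, 6 and 6 counts, overlapping sham. The 14-day libraries A, B and C had 1.18, 1.96 and 2.21 CPM, from 34, 67 and 54 counts, all above every other library. At 1 day the log2 fold was -0.44 (SE 0.40, edgeR adjusted p = 0.366), and its sign turned with scaling by total count only (0.05). At 14 days Fst rose 3.92-fold, a log2 fold of 1.97 (SE 0.32, edgeR adjusted p = 0.00471), and against 1 day the log2 fold was 2.41 (SE 0.32, edgeR adjusted p = 1.59e-04).

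Fstl1 (ENSMUSG00000022816, chr16:37776873-37836514), named for its follistatin-like domain, was by far the most abundant of the 10 genes. It had 67.5, 43.0 and 49.5 CPM in sham mice 1, 2 and 3, and 104, 106 and 76.8 CPM in mice 4, 5 and 6. In the 14-day libraries A, B and C it had 148, 244 and 379 CPM, a wide spread in which each library still stood above every other library. At 14 days it rose 4.81-fold, a log2 fold of 2.27 (SE 0.32, edgeR adjusted p = 0.00381). At 1 day the rise was 1.79-fold, a log2 fold of 0.84 (SE 0.31, edgeR adjusted p = 0.0411). That call was lost without sham mouse 2, sham mouse 3, mouse 4, 5 or 6, or library B (log2 folds of 0.70 to 0.97, edgeR adjusted p from 0.0563 to 0.132) and with no filter on low counts (edgeR adjusted p = 0.148). From 1 to 14 days it rose by 1.43 on the log2 scale (SE 0.31, edgeR adjusted p = 0.00384), and by 1.07 with scaling by total count only (edgeR adjusted p = 0.0558).

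Markers of other cell types moved with both sets of genes. Where Inhba, Fstl3 and Gdf15 were high, at 1 day, the summed neutrophil markers stood at 15.9 to 53.3 CPM, the monocyte and macrophage markers at 210 to 231 CPM and the cardiomyocyte markers at 6565 to 12852 CPM. The summed erythroid, blood endothelium and mural cell markers were at their lowest there, as given above, but not each marker was. The mural cell marker Cspg4 was higher at 1 day, at a mean of 58.8 CPM against 21.2 CPM in sham. The endothelial Pecam1, at 76.4 against 71.7 CPM, was not called. Where Fst, Fstl1 and Bmp4 were high, at 14 days, the fibroblast markers stood at 1789 to 4202 CPM and the monocyte and macrophage markers at 180 to 349 CPM. Their part in these results was not tested, and in bulk RNA fewer cells of a type and less RNA per cell cannot be told apart.

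**Figure D2:**
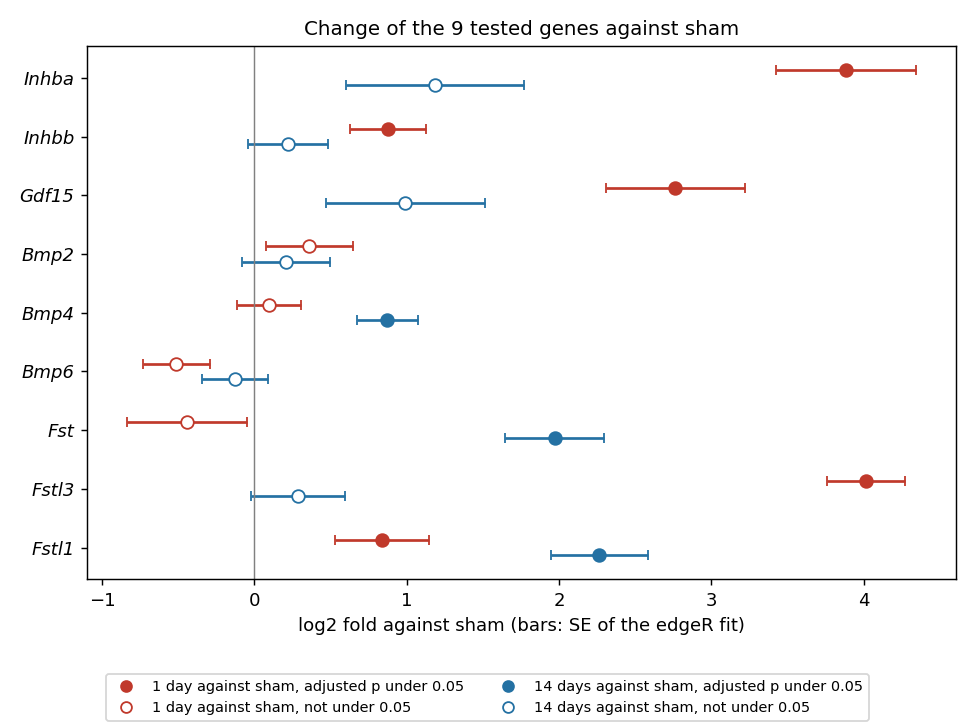
Log2 fold against sham at 1 day (red) and at 14 days (blue) for the 9 tested genes, with the SE of the edgeR fit as bars and filled points where the adjusted p was under 0.05. Fstl3 and Inhba lie near 4 at 1 day and were not called at 14 days, whereas Fst and Fstl1 lie near 2 at 14 days.

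Grem1 (ENSMUSG00000074934, chr2:113746164-113758646), the secreted BMP antagonist, had 0 counts in all 9 libraries. Allowing for 3 counts in a library, this puts its level below 0.0679 CPM in mouse 4, the deepest library by scaled size, and below 0.192 CPM in sham mouse 3, the shallowest, for counting error only.

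Compared per kilobase of exonic length, the order of the levels changed between the groups. In sham, Fstl1 led with a level of 10.9 CPM per kilobase, followed by Bmp6 (1.04), Bmp4 (0.793), Fstl3 (0.535), Inhbb (0.331), Gdf15 (0.200), Bmp2 (0.169), Fst (0.0994) and Inhba (0.0278). Neighbours overlapped from Bmp6 through Inhbb, and Gdf15 with Bmp2. At 1 day the levels were 19.4 CPM per kilobase for Fstl1, 8.96 for Fstl3, 1.34 for Gdf15, 0.838 for Bmp4, 0.723 for Bmp6, 0.618 for Inhbb, 0.438 for Inhba, 0.211 for Bmp2 and 0.0681 for Fst. Here neighbours overlapped from Gdf15 through Inhba. Fstl3 had moved from the 4th to the 2nd place and Fst had become the lowest of the detected genes. At 14 days Fstl1 stood at 52.2 CPM per kilobase, Bmp4 at 1.42, Bmp6 at 0.957, Fstl3 at 0.684, Gdf15 at 0.407, Inhbb at 0.391, Fst at 0.389, Bmp2 at 0.191 and Inhba at 0.0705. At that time neighbours overlapped from Bmp6 through Fst, and Bmp4 stood apart from Bmp6. Fstl1 alone made up 74.9% to 79.6% of the summed level of the members per kilobase in sham, 57.9% to 60.8% at 1 day and 88.3% to 93.5% at 14 days.

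The balance of follistatin to the activin chain it binds was compared within each library, where scaling plays no part. The log2 ratio of Fst to Inhba, from counts plus 0.5 per kilobase, was 0.78, 2.06 and 2.98 in sham mice 1, 2 and 3. It was -2.46, -2.98 and -2.45 in mice 4, 5 and 6, and 2.34, 3.31 and 1.96 in libraries A, B and C. Fst thus exceeded Inhba in all sham and 14-day libraries, and Inhba exceeded Fst in all 1-day libraries. In sham mouse 1 this rested on 10 counts of Fst and 8 of Inhba, too few to settle their order there. The difference from sham was -4.57 at 1 day (two-sided exact permutation p = 0.1, adjusted 0.15) and 0.59 at 14 days (exact permutation p = 0.5, adjusted 0.5). Between both times it was 5.17 (exact permutation p = 0.1, adjusted 0.15).

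With Fstl3 in place of Fst, or beside it, the balance differed. The following ratios were formed after the levels had been seen and are given without a test. The log2 ratio of Fst to Fstl3 averaged -2.33 ± 0.67 in sham, -6.96 ± 0.39 in the 1-day mice and -0.85 ± 0.30 in the 14-day mice (SD, n = 3). The log2 ratio of Fst and Fstl3 together to Inhba and Inhbb together was 1.00, 0.72 and 0.69 in sham mice 1, 2 and 3, then 3.18, 3.35 and 2.65 in mice 4, 5 and 6, and 1.39, 0.95 and 1.35 in libraries A, B and C. With Fstl3 counted, transcripts of the activin binders per kilobase exceeded those of the activin chains in all 9 libraries, and by most in the 1-day libraries. In sham this order depends on the exonic lengths used, and the counts were few and close. Sham mouse 3 had 8 counts of Fst and 13 of Fstl3, against 1 of Inhba and 18 of Inhbb, too few to settle the order there.

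**Figure D3:**
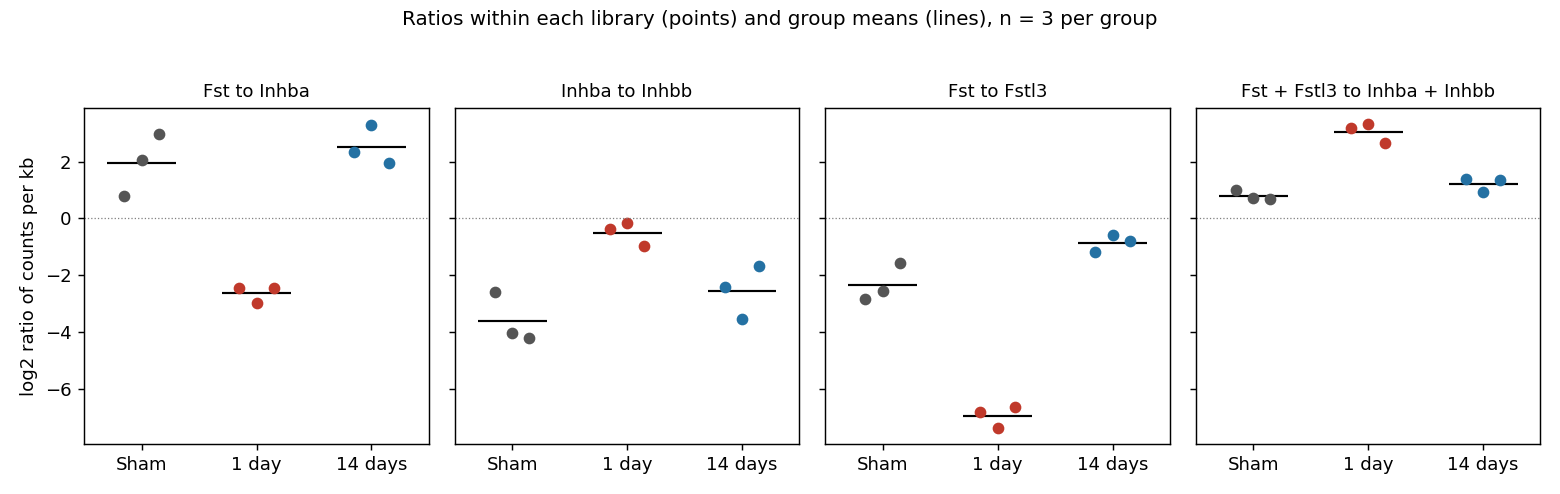
Log2 ratios of counts per kilobase within each library (points) with group means (lines), for 3 libraries per group. Fst to Inhba is below 0 only in the 1-day libraries, between -2.98 and -2.45, while Fst and Fstl3 summed against Inhba and Inhbb summed is above 0 in all 9 libraries.

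A further 72 genes in 6 lists place the members in context, and 53 of them were tested. All are called pathway genes here, though the last list holds integrated stress response genes, not activin and BMP genes. That list alone had 5 higher and 0 lower calls at 1 day, 1 and 0 at 14 days, and 0 and 4 between both times. The shares of all genes called, given next, hold also beside the calls of each list below. At 1 day against sham 17 were called higher and 10 lower, beside 29.4% and 24.8% of all genes, and with scaling by total count only 29 and 2. At 14 days against sham 8 were called higher and 6 lower, beside 8.75% and 5.64% of all genes, and with scaling by total count only 4 and 2. Without sham mouse 2 the 14-day count was 0 higher and 2 lower, and it was between 6 and 7 in all without sham mouse 1, sham mouse 3, library B or library C. Between both times 13 were higher and 10 lower at 14 days, beside 25.1% and 26.8% of all genes, and with scaling by total count only 5 and 18. That scaling ended the calls of Inha, Acvr2a, Bmpr1a, Rgma, Twsg1, Chrd, Wfikkn2 and Smad9 at 1 day (edgeR adjusted p from 0.0593 to 0.998) and of Inha, Eng, Bmper, Bmp1, Smad1, Smad7, Smurf1 and Skil at 14 days (edgeR adjusted p from 0.0715 to 0.449).

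Of 6 tested further ligands 2 rose and 2 fell at 1 day, with a median log2 fold of -0.02. Gdf6, a BMP-like ligand of skeletal patterning, went from 0.292 ± 0.142 to 1.58 ± 0.598 CPM (SD, n = 3), a log2 fold of 2.36 (SE 0.53, edgeR adjusted p = 0.00332). Gdf11, a relative of myostatin, rose by 0.62 on the log2 scale (edgeR adjusted p = 0.0334). Inha, whose product pairs with the activin chains to form inhibins, fell by 1.38 on the log2 scale (edgeR adjusted p = 0.00548), and Bmp7 fell by 1.97 (edgeR adjusted p = 0.0168). At 14 days only Inha was called, with a log2 fold of -1.09 (edgeR adjusted p = 0.0492), in a list whose median was 0.29. The call of Gdf11 was lost without any 1 of the sham mice, mouse 6 or library C (log2 folds from 0.44, edgeR adjusted p up to 0.111). That of Bmp7 was lost without sham mouse 1 or mouse 4 (edgeR adjusted p up to 0.0854), and its log2 fold was -2.68 without mouse 6. That of Inha at 14 days was lost without any 1 of the sham or 14-day libraries or mouse 4 (edgeR adjusted p up to 0.178).

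Among 11 tested receptors and co-receptors, changes were small: 2 rose and 3 fell at 1 day (median log2 fold -0.10), and 0 rose and 2 fell at 14 days (0.06). At 1 day the activin type I receptor Acvr1b rose by 0.42 (edgeR adjusted p = 0.0244) and Acvrl1, an endothelial receptor of BMP9 and BMP10, by 0.48 on the log2 scale (edgeR adjusted p = 0.00678). The activin type II receptor Acvr2a fell by 0.40 (edgeR adjusted p = 0.00575) and the BMP type I receptor Bmpr1a by 0.27 (edgeR adjusted p = 0.0362), both with log2 folds above 0 under scaling by total count only (0.06 and 0.20). Rgma, a BMP co-receptor, fell by 0.46 at 1 day (edgeR adjusted p = 0.0495) and by 0.94 at 14 days (edgeR adjusted p = 0.00902). Eng, the endothelial co-receptor endoglin, fell by 0.38 on the log2 scale at 14 days (edgeR adjusted p = 0.0194). Of the Gdf15 receptor pair, Gfral was too low to be tested and Ret was not called at either time. Single libraries ended the call of Acvr1b (any 1 of the sham mice or mouse 4, down to a log2 fold of 0.25), of Bmpr1a (any 1 of the sham mice, mouse 4, mouse 5 or library B), of Rgma at 1 day (any library but mouse 6, without which the log2 fold was -0.75) and at 14 days (sham mouse 2), and of Eng (sham mouse 1 or 2, library B or C). Their edgeR adjusted p then reached 0.164, 0.113, 0.182, 0.0520 and 0.111.

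Of 11 tested further antagonists and modulators 3 rose and 3 fell at 1 day (median log2 fold -0.42), and 4 rose and 0 fell at 14 days (median 0.73). Of all genes, 29.4% were called higher and 24.8% lower at 1 day, and 8.75% and 5.64% at 14 days. The proteases that cleave the BMP antagonist chordin rose at 1 day: Bmp1, which also trims procollagen, by 1.02 (edgeR adjusted p = 0.00880), and its relative Tll1 by 1.94 on the log2 scale (edgeR adjusted p = 0.00232). Bmper, a secreted BMP modulator of endothelium, rose from 1.96 ± 0.791 to 5.22 ± 1.33 CPM (SD, n = 3), a log2 fold of 1.35 (edgeR adjusted p = 0.0161). Twsg1, a chordin partner, fell by 0.54 on the log2 scale (edgeR adjusted p = 0.00255). The other 2 that fell, named after their values were seen, were chordin itself, Chrd, by 0.89 (edgeR adjusted p = 0.0497), and Wfikkn2, a binder of myostatin and Gdf11, by 1.14 (edgeR adjusted p = 0.00954). Without single libraries the calls of Bmper (sham mouse 3 or mouse 5), Chrd (any 1 of the sham mice, mouse 4, mouse 5, library A or B) and Wfikkn2 (mouse 4) were lost, with edgeR adjusted p up to 0.0513, 0.158 and 0.0506.

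Chrdl1, a chordin-like BMP antagonist, and Nbl1, a BMP antagonist of the gremlin family, rose at 14 days. So did the modulator Bmper and the chordin-cleaving protease Bmp1. Chrdl1 went from 0.339 ± 0.172 to 1.27 ± 0.327 CPM (SD, n = 3), a log2 fold of 1.97 (SE 0.39, edgeR adjusted p = 0.00969). Nbl1 rose by 1.30 (edgeR adjusted p = 0.0305), Bmper by 1.46 (edgeR adjusted p = 0.0366) and Bmp1 by 0.94 on the log2 scale (edgeR adjusted p = 0.0425). Single libraries ended each of these 14-day calls. That of Chrdl1 was lost without sham mouse 2 (edgeR adjusted p = 0.0575), and those of Nbl1, Bmper and Bmp1 without any 1 of the sham mice, library B or library C (edgeR adjusted p up to 0.131, 0.136 and 0.130), that of Nbl1 also without mouse 6 and that of Bmp1 without mouse 5. Without library C the log2 fold of Nbl1 was 0.82.

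All 13 Smads and inhibitors were tested. At 1 day 5 rose and 1 fell (median log2 fold 0.05). The ubiquitin ligase Smurf2, which targets Smads and receptors, rose by 0.38 (edgeR adjusted p = 0.00490), its relative Smurf1 by 0.27 (edgeR adjusted p = 0.0196) and the Smad corepressor Ski by 0.34 on the log2 scale (edgeR adjusted p = 0.0119). The other 2, named after their values were seen, were Smad1 of the BMP arm (0.52, edgeR adjusted p = 0.00312) and Smad2 of the activin arm (0.33, edgeR adjusted p = 0.0125). Smad9, also of the BMP arm, fell by 1.22 (SE 0.22, edgeR adjusted p = 9.12e-04). At 14 days Smad1 (0.39, edgeR adjusted p = 0.0471) and the corepressor Skil (0.57, edgeR adjusted p = 0.0472) rose, and the inhibitory Smad7 (-0.60, edgeR adjusted p = 0.00802) and Smurf1 (-0.36, edgeR adjusted p = 0.0186) fell. At 1 day the calls of Ski (sham mouse 3 or mouse 4), Smurf1 (sham mouse 1, sham mouse 2 or mouse 4) and Smad2 (sham mouse 1 or mouse 5) were lost without single libraries, with edgeR adjusted p up to 0.0759, 0.0850 and 0.0614. At 14 days those of Smad1 (any 1 of the sham mice, mouse 4, library B or C), Skil (any library but A, with a log2 fold of 0.31 without library C) and Smurf1 (sham mouse 2 or 3, library B or C) were lost, with edgeR adjusted p up to 0.159, 0.165 and 0.0824.

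Of 7 tested target genes of BMP-Smad signalling, 0 rose and 1 fell at 1 day (median log2 fold 0.05), and 1 rose and 2 fell at 14 days (-0.13). Id1, a helix-loop-helix inhibitor and a standard BMP readout, fell at both times. It had 10.6, 10.9 and 11.4 CPM in sham, 5.82, 5.48 and 5.11 CPM in mice 4, 5 and 6, and 5.85, 4.51 and 5.31 CPM in libraries A, B and C, so that no sham library overlapped the others. Id1 fell to 0.501 of its sham level at 1 day (log2 SE 0.12, edgeR adjusted p = 8.57e-05) and to 0.476 at 14 days (log2 SE 0.12, edgeR adjusted p = 0.00151). Its relative Id2 rose by 1.69 on the log2 scale at 14 days (edgeR adjusted p = 0.0139), a call lost without sham mouse 2 (edgeR adjusted p = 0.0718), and Smad7, also counted here, fell. Comparisons at both times share the sham libraries.

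The integrated stress response is the pathway through the transcription factor Atf4 that is known to induce Gdf15. Of its 8 tested genes 5 rose and 0 fell at 1 day (median log2 fold 0.88), where 29.4% of all genes were called higher, and 1 rose and 0 fell at 14 days (0.18). Atf4 had 20.4, 22.1 and 20.6 CPM in sham and 42.8, 42.5 and 36.2 CPM in mice 4, 5 and 6, a log2 fold of 0.95 (SE 0.11, edgeR adjusted p = 8.10e-05). Asns, asparagine synthetase, rose by 2.87 at 1 day (SE 0.47, edgeR adjusted p = 8.01e-04) and by 2.43 on the log2 scale at 14 days (SE 0.48, edgeR adjusted p = 0.0119). Also called at 1 day were Atf3 (1.34, edgeR adjusted p = 0.0142), the stress-induced Sesn2 (0.98, edgeR adjusted p = 0.00222) and Ppp1r15a, a phosphatase subunit that ends the response (0.57, edgeR adjusted p = 0.00747). Gdf15 and these 5 genes were thus called higher in the same comparison, beside the marker levels given above. Without sham mouse 2 the calls of Atf3 at 1 day (edgeR adjusted p = 0.0545) and of Asns at 14 days (edgeR adjusted p = 0.0654) were lost.

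**Figure D4:**
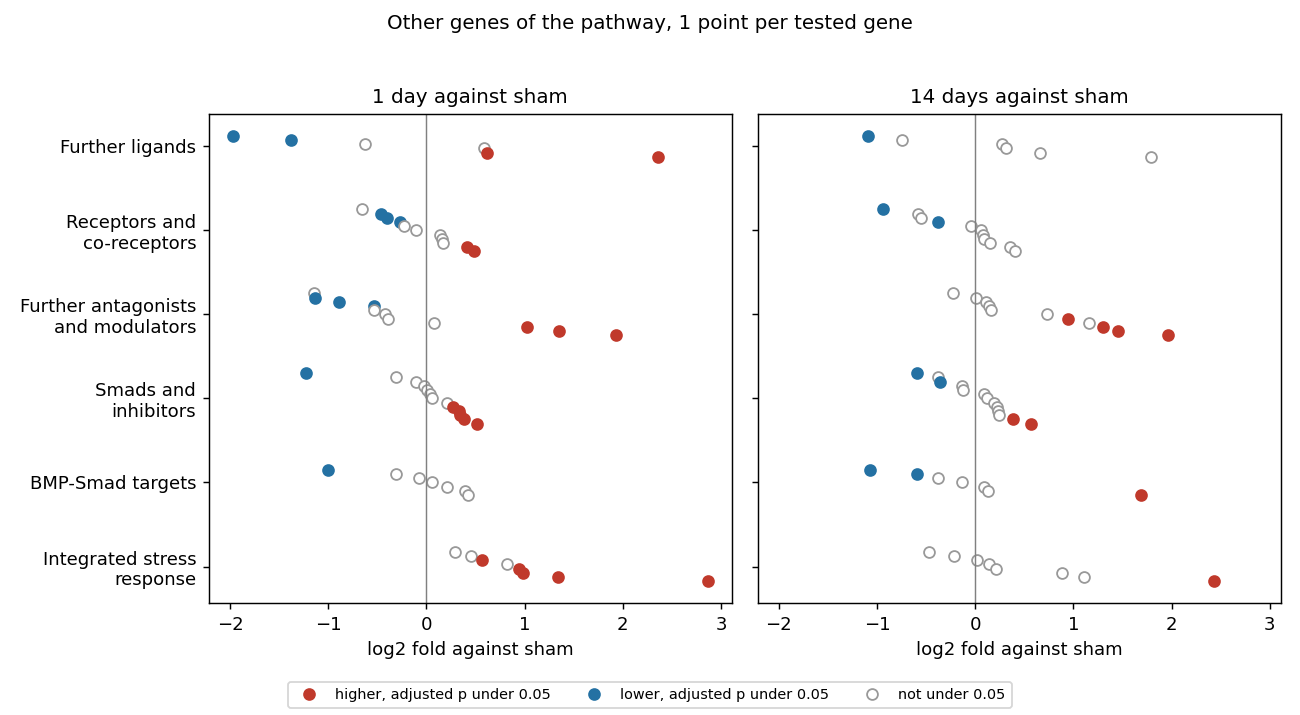
Log2 fold against sham at 1 day and at 14 days for the tested genes of the 6 pathway lists, 1 point per gene, red where called higher, blue where called lower and open where not called by edgeR. The stress response genes lie above 0 at 1 day, and the further antagonists and modulators lie mostly above 0 at 14 days.

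The genes most like each member in level over the 9 libraries were listed for members of at least 1 CPM, by Pearson's r of log2 CPM among 7898 genes, as a description in which all points share their libraries and group structure. Fstl1 was followed most closely by the matrix genes Adamts2 (r = 0.997), Sparc (r = 0.994) and Postn (r = 0.994). Fstl3 was followed by Tuba1b (r = 0.997), Senp5 (r = 0.997) and Ptbp1 (r = 0.996), a tubulin, a SUMO protease and a splicing regulator. Inhba was followed by M6pr (r = 0.986), Ttc27 (r = 0.986) and Pfkp (r = 0.984), and Gdf15 by Nudcd1 (r = 0.983), Hspa13 (r = 0.976) and Uap1 (r = 0.973). Inhba and Gdf15 met the limit of 1 CPM only through their 1-day means of 2.80 and 2.49 CPM. Their means were 0.178 and 0.371 CPM in sham and 0.451 and 0.753 CPM at 14 days, so that their r values largely restate the 1-day rise. Bmp4 was followed by Erbin (r = 0.987), Ggps1 (r = 0.967) and Rarres2 (r = 0.965). The closest genes lay lower for Inhbb, with Sepsecs (r = 0.958), Ccdc93 (r = 0.956) and Ino80c (r = 0.943), and for Bmp6, with Lamb2 (r = 0.900), Srp14 (r = 0.894) and Aagab (r = 0.886).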

How the data were processed

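Total RNA of the left ventricle came from TRIzol extraction, and libraries were stranded and depleted of ribosomal RNA, per the labels' protocols. STAR 2.7.1a and the build GRCm38 (mm10) were used, per the submitters' processing notes. The authors deposited raw counts as whole numbers, 1 column per library. How they were counted (program, annotation, strand, reads matching several places) is not given in the sources used here.

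Of 38293 genes, 36429 were named from GENCODE M21 (GRCm38), and 14124 passed edgeR's filter on low counts. edgeR 4.0.16 (R 4.3.3) tested them by quasi-likelihood, with TMM scaling, robust dispersion and all 9 libraries in 1 fit. Adjusted p is the Benjamini-Hochberg value over all 14124 genes. CPM divides each count by the TMM-scaled library size, per 1M. For ratios the test was an exact permutation test, two-sided. No 2 libraries of a group agreed within sampling noise (chi-square over degrees of freedom 6.90 to 89.7). The groups share no mouse numbers, so no pairing was made. p-values measure the spread between these mice. Among the members, Bmp4, Bmp6 and Fst also share 3.96%, 5.74% and 2.51% of their exonic bases with other genes.

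Members, lists and alternatives were chosen with earlier results of these data known. The text names all members, and from each pathway list and comparison against sham the called genes where these are 5 or fewer, otherwise, by highest mean CPM, 3 from the direction holding most calls and 1 from the opposite one. Marker lists not given in full above were epicardium and mesothelium, T and B cell, atrium and skeletal muscle. Their summed levels over all libraries were 1.43 to 8.83, 0.0896 to 1.35, 0.477 to 1.21 and 478 to 834 CPM, in that order. Of the epicardium and mesothelium list, 1 of 3 tested markers was lower than in sham at each time. The skeletal muscle list shares Ckm and Acta1 with the heart. Alternatives were DESeq2 1.42.0, its size factors, total count only, upper-quartile scaling, scaling without mitochondrial and rRNA genes, limma-voom (3.58.1), no filter, 1 CPM in 3 libraries, the groups compared alone, a prior of 2 counts in ratios and each library left out. Figures used matplotlib 3.10.9 under Python 3.11.15.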

Additional observations from a re-analysis of the deposited data

Results flagged for a closer look

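Of the 9 tested members, 7 differed between 1 day and 14 days after ischemia-reperfusion, as tested directly between both times with edgeR. The log2 folds of 14 days against 1 day were -3.73 for Fstl3 (edgeR adjusted p = 4.66e-06), -2.70 for Inhba (edgeR adjusted p = 2.24e-04), -1.77 for Gdf15 (edgeR adjusted p = 0.00331) and -0.66 for Inhbb (edgeR adjusted p = 0.0380). They were 2.41 for Fst (edgeR adjusted p = 1.59e-04), 1.43 for Fstl1 (edgeR adjusted p = 0.00384) and 0.77 for Bmp4 (edgeR adjusted p = 0.00595). In this comparison 51.9% of all genes tested were called.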

How the results depend on the processing

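The calls of Inhba, Fstl3 and Gdf15 at 1 day and of Fst and Fstl1 at 14 days against sham were kept under all 18 alternatives. The 5 members called at 1 day ranged from 3 to 6 when 1 library was left out, with 3 without mouse 4. The 14 pathway genes called at 14 days against sham were 6 with total count only and 7 with limma-voom, and ranged from 2 to 17 when 1 library was left out. Total count only, which leaves composition uncorrected, moved the median of all genes by 0.48 at 1 day, 0.09 at 14 days and -0.39 between both times. It turned the all-gene calls from 4153 higher and 3496 lower to 6860 and 1057 at 1 day, from 1236 and 797 to 720 and 112 at 14 days, and from 3547 and 3788 to 1066 and 5469 between both times. Under it the log2 folds of Fst (0.0544), Acvr2a (0.0610) and Bmpr1a (0.20) at 1 day and of Bmp6 between both times (-0.0067) changed sign, and members called between both times went from 3 higher and 4 lower to 1 and 4. Left-out libraries also turned the sign of 3 log2 folds that were not called: Bmp4 at 1 day ran from -0.0655 to 0.235, Inhbb at 14 days from -0.0351 to 0.429 and Bmp6 at 14 days from -0.295 to 0.102. The cause of these shifts was not tested. At 14 days limma-voom also ended the calls of Inha, Nbl1, Bmper, Bmp1, Smad1, Skil and Asns, and no filter on low counts those of Nbl1, Bmper, Bmp1, Id2 and Asns, and at 1 day those of Gdf11, Bmpr1a, Bmper, Chrd and Atf3. DESeq2 ended those of Gdf11 and Smurf1 at 1 day and of Smad1 at 14 days, and the size factors of DESeq2 in edgeR those of Smad1 and Skil at 14 days (that of Skil also with scaling without mitochondrial and rRNA genes). Fitting only the groups compared ended those of Gdf11 and Rgma at 1 day, of Nbl1, Bmper, Bmp1 and Skil at 14 days and of Inhbb between both times. The tested ratios kept their direction in every alternative run for them. That of Fst to Inhba at 14 days against sham did so barely, running from 0.014 to 1.11 with 1 library left out. No paired analysis was possible because the groups share no mouse numbers. The planned ratio of Grem1 to the BMPs was not run, since Grem1 had no counts. Low counts limit Inhba, Fst, Gdf15 and Bmp2, and 19 of the 72 pathway genes were too low to test.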
